A study of Homo sapiens with 22 samples.

Results

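Chromatin around 9 human genes that encode platelet adhesion receptors was followed while K562 cells were driven toward a megakaryocyte-like state. The genes were ITGA2B, ITGB3, GP1BA, GP1BB, GP5, GP9, GP6, SELP and CD9. Every region of the authors' 4 region tables (H3K27ac, Jun, CTCF and Rad21) that overlapped the RefSeq span of one of these genes, widened by 50 kb on each side, was taken, whatever its counts. This gave 365 of 409446 regions, of which 93 belong to H3K27ac, 125 to Jun, 60 to CTCF and 87 to Rad21. ITGB3 held 85 of them, CD9 56, GP6 49, GP1BB 45, ITGA2B 43, GP1BA 30, SELP 22, GP9 19 and GP5 16. The gene spans themselves held 25, 32, 12 and 18 regions of the 4 antibodies in the same order, so most regions lay in the flanks, many of them over neighbouring genes.

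K562 is an established human leukemia cell line, labelled here as wild type. All cultures were grown in RPMI with 10% FBS and 1% Pen/Strep, and the treatment was 25 nM PMA, a phorbol ester, for 0, 6 or 72 h, with 0 h as the untreated reference. Cells were fixed with 1% formaldehyde, and the assay, abbreviated CNR in the titles, is taken here as CUT&RUN, in which an antibody directs a nuclease to cut DNA beside a bound protein or histone mark. There were 22 libraries in 11 groups of 2: H3K27ac, Jun and CTCF at all 3 times, and Rad21 at 0 and 72 h. Nothing in the labels says whether the replicates were separate cultures, so the p-values measure the spread between these libraries, which may be technical, and 1 cell line stands for the megakaryocyte lineage.

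Platelets, which megakaryocytes shed, stick to damaged vessel walls through a few surface receptors. ITGA2B and ITGB3 encode the subunits of the integrin αIIbβ3, the fibrinogen receptor that links platelets to each other. GP1BA, GP1BB, GP9 and GP5 encode the GPIb-IX-V complex, which catches von Willebrand factor under flow; GP6 encodes a collagen receptor that signals through the Fc receptor gamma chain; SELP encodes P-selectin, an adhesion molecule of platelet granules and endothelium; and CD9 encodes a tetraspanin abundant on platelets. H3K27ac is an acetylated histone found at active promoters and enhancers, Jun is a subunit of the transcription factor AP-1, CTCF is an insulator protein and Rad21 is a subunit of the cohesin ring. Genes of this kind are known to be driven in megakaryocytes by GATA, ETS and other factors.

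The 200 bases before the start site are shown for 4 genes whose start carried a region that changed at 6 and 72 h, and for GP5, whose start carried no H3K27ac region. They are RefSeq sequence of GRCh38.p14, 5′ to 3′ on the gene's strand, in lower case, with capitals marking matches to the motifs searched.
ITGA2B (chr17:44389650-44389849, minus strand): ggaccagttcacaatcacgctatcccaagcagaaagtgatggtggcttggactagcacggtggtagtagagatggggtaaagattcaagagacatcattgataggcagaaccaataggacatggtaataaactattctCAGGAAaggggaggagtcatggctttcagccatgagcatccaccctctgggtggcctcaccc
GP6 (chr19:55038265-55038464, minus strand): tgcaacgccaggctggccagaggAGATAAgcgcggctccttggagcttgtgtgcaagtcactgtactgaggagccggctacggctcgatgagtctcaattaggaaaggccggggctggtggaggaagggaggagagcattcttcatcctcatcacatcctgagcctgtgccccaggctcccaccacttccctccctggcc
GP1BB (chr22:19723339-19723538, plus strand): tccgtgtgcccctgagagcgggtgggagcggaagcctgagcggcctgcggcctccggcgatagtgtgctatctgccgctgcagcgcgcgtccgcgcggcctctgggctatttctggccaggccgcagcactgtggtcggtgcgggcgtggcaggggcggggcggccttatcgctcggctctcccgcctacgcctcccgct
CD9, first start (chr12:6199746-6199945, plus strand): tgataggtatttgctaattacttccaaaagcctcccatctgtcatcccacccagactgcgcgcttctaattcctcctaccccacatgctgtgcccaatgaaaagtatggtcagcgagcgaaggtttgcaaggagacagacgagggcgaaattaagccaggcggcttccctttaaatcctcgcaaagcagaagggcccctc
GP5 (chr3:194399267-194399466, minus strand): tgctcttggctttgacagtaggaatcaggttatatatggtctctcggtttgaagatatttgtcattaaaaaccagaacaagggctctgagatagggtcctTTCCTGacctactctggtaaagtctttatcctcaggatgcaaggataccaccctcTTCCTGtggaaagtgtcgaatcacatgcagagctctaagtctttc
The motifs were TGANTCA, known for AP-1, AGATAA, known for GATA factors, and CCGGAA with CAGGAA, known for ETS factors, on both strands. RefSeq start windows were found for 7 of the 9 genes, 10 windows in all because CD9 has 4 start sites; ITGB3 and GP1BA were not in the table. TGANTCA was in none of the 10 windows and in 5.38% of all 35116 windows of that length. AGATAA was in 1 of the 10 (GP6, first base at -177 from the start) and in 7.16% of all windows. CAGGAA was in 2 of the 10, at -62 in ITGA2B and at -100 and -45 in GP5, where it reads TTCCTG on the gene's strand, and in 19.8% of all windows. CCGGAA was in none of the 10 and in 12.9% of all. A match or its lack describes these letters only. Base composition varied widely: the GP1BB window was 73.0% G or C with 25 CpG dinucleotides, the ITGA2B window 49.5% with 2 and the GP5 window 43.5% with 2, against medians of 59.0% and 9 over all windows.

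Libraries held between 12634261 and 27266241 counts in regions for H3K27ac, between 4766421 and 18883962 for Jun, between 2553677 and 6068421 for CTCF, and between 4398797 and 7285286 for Rad21. The Jun libraries differed with time, with 7952946 and 8600736 counts before treatment, 4766421 and 5531183 after 6 h, and 17245043 and 18883962 after 72 h. The mitochondrial share of Jun counts differed too, at 24.0% and 27.7%, then 21.3% and 18.1%, then 9.07% and 8.58%. For CTCF that share was 17.8% and 22.1%, then 30.5% and 20.4%, then 9.55% and 9.63%. Levels are given as CPM, the count of a region relative to its library's total after TMM, edgeR's scaling of libraries to each other. HBG2, GATA1, KLF1 and TAL1 were listed as erythroid genes, to mark the state of untreated K562. Their H3K27ac summed to 508 and 525 CPM at 0 h, then 242 and 284 at 6 h, then 257 and 268 at 72 h. HBG1 had no region. The sum hides a split after 6 h. KLF1 had 129 and 135 CPM, then 32.7 and 39.6, then 11.4 and 12.7. HBG2 had 70 and 70.3, then 40 and 40.4, then 30 and 31.6. GATA1 had 98.5 and 99.5, then 43.5 and 60, then 74.4 and 76. TAL1 had 210 and 220, then 126 and 144, then 141 and 148. GATA factors also drive receptor genes, as said above, so GATA1 need not mark an erythroid state alone. Markers of T cells, B cells, hepatocytes and monocytes summed to 32.4 to 49.5 CPM in all libraries, and MS4A1, ALB and CD14 had no region. The erythroid sum fell at the same times as several receptor windows did, and its part in those results was not tested. In bulk libraries, fewer cells that carry a mark and less of the mark per cell cannot be told apart.

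H3K27ac changed over most regions of the 9 genes, in opposite directions at different genes. Regions were called with edgeR's quasi-likelihood test at a Benjamini-Hochberg adjusted p under 0.05 over all tested regions of an antibody. Between 0 and 72 h, 79 of 93 tested H3K27ac regions were called, 44 higher and 35 lower, where 81.5% of all tested regions were called (43.4% higher and 38.1% lower). That share is near the background, so it is not a result about these genes. Their median log2 fold change was 0.56 against 0.18 over all regions. Between 0 and 6 h, 64 were called, 35 higher and 29 lower (background 58.6% called, 32.3% higher and 26.3% lower), and between 6 and 72 h 54 were called, 30 higher and 24 lower (background 63.8%, 33.1% higher and 30.8% lower). The genes differed in direction. ITGB3 had 17 higher and 3 lower of 21 regions at 72 h, and CD9 had 15 higher and none lower of 16. The reverse split was seen at ITGA2B, with 2 higher and 8 lower of 11, GP1BB, with 3 and 9 of 13, GP1BA, with 2 and 6 of 9, and GP6, with 2 and 6 of 11. With total counts GP6 had 5 and 6, which is no such split, and without 0 h replicate 2 GP1BB had none and 9. GP5 and GP9 each had 1 higher and 1 lower, of 4 and 6 regions, and with total counts each had 2 higher and none lower; SELP had 1 and 1 of 2. Within the gene spans 16 of 25 regions were higher and 7 lower (median 1.41), and in the flanks 28 of 68 were higher and 28 lower (median 0.31). The higher span regions were 11 at ITGB3, 4 at CD9 and 1 at GP1BA, so the pooled span count mostly reflects ITGB3 and CD9. The lower ones were 3 at ITGA2B, 2 at GP6, 1 at GP1BB and 1 at GP9.

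**Figure D1:**
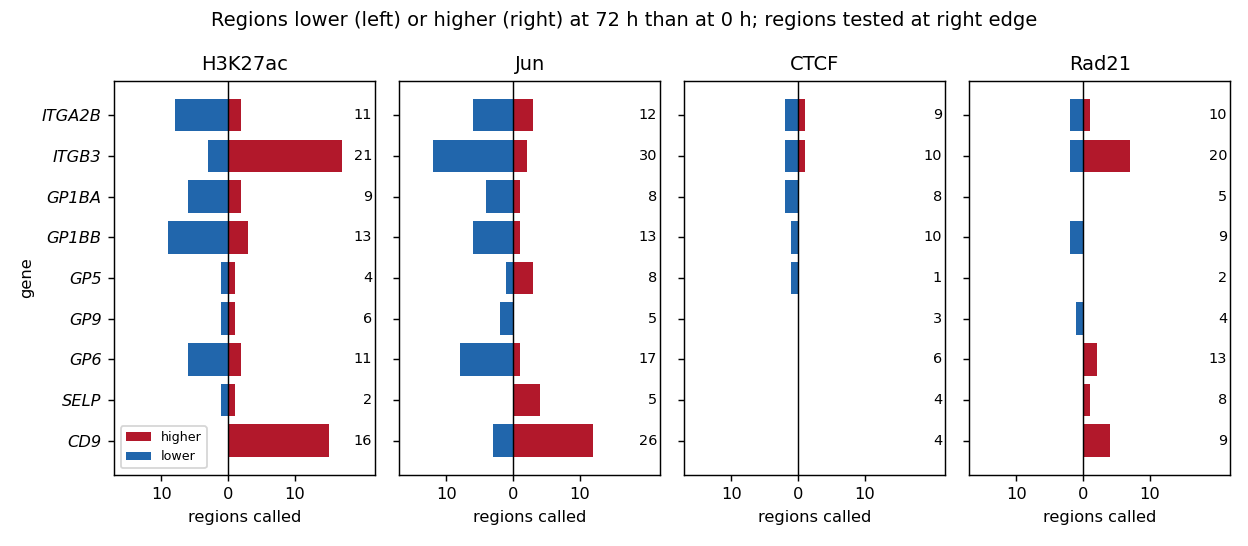
Regions called lower (bars to the left) or higher (bars to the right) at 72 h against 0 h, by gene and antibody, with the number tested at the right. For H3K27ac, ITGB3 (17 higher, 3 lower) and CD9 (15 higher, none lower) lean right, and ITGA2B, GP1BA, GP1BB and GP6 lean left.

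Jun calls were more often lower than higher with TMM scaling, a split that turned with total counts. Between 0 and 72 h, 69 of 124 tested Jun regions were called, 27 higher and 42 lower (background 53.7% called, 28% higher and 25.7% lower), and the median log2 fold change was -0.16 against 0.17 over all regions. Between 0 and 6 h, 42 were called, 20 higher and 22 lower (background 25.3%, 13.1% higher and 12.2% lower), and between 6 and 72 h 28, with 5 higher and 23 lower (background 26.2%, 12.7% higher and 13.5% lower). CD9 had 12 higher and 3 lower of 26 regions at 72 h and SELP 4 higher and none lower of 5. ITGB3 had 2 higher and 12 lower of 30, GP6 1 and 8 of 17, ITGA2B 3 and 6 of 12, GP1BB 1 and 6 of 13, GP1BA 1 and 4 of 8, GP9 none and 2 of 5, and GP5 3 and 1 of 8. The share of higher calls depended on the scaling of the libraries. Total counts include the mitochondrial regions, whose share of Jun and CTCF counts was lower at 72 h, as given above. Their part in this was not tested. With total counts in place of TMM, 64.3% of the called Jun regions were higher at 72 against 0 h in place of 39.1%, and with DESeq2's size factors 31.6%; over all called regions the shares were 74.4%, 52.1% and 43.5%. At 6 against 0 h it was 66.7% with total counts and 47.6% with TMM (66.9% and 51.9% over all called regions), and at 72 against 6 h 70.8% with total counts, 17.9% with TMM and 0% with DESeq2 (78.9%, 48.6% and 38.1% over all). For H3K27ac at 6 against 0 h it was 77.6% with total counts and 54.7% with TMM (71.8% and 55.1% over all). Total counts moved the median of all regions from 0.17 to 0.73 for Jun at 72 h, from 0.06 to 0.26 at 6 h, from 0.02 to 0.39 between 6 and 72 h, and for H3K27ac from 0.2 to 0.53 at 6 h and 0.18 to 0.42 at 72 h. Under total counts ITGB3 had 7 higher and 7 lower Jun regions at 72 h, while CD9 had 19 and 1, SELP 5 and none, GP5 5 and none, GP6 3 and 6 and ITGA2B 3 and 4.

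**Figure D2:**
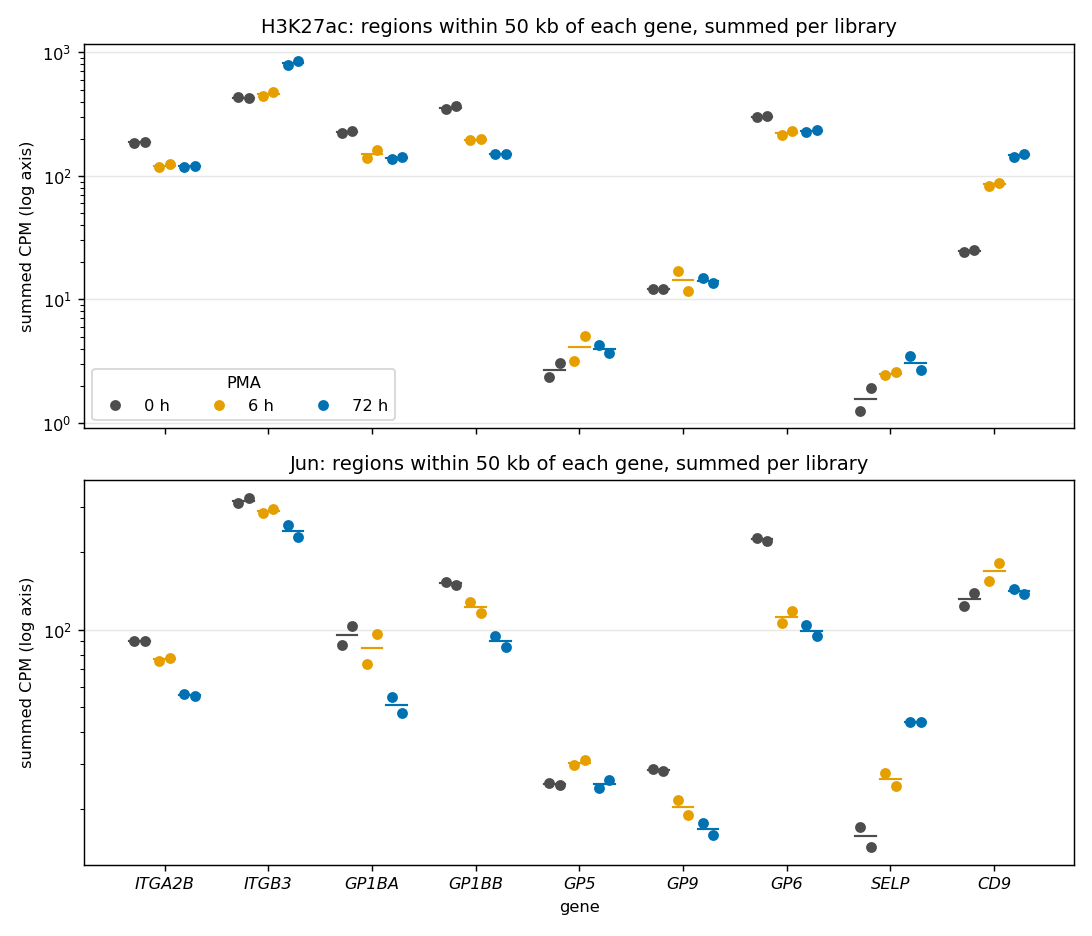
Summed CPM (log axis) over all regions of each gene's window for H3K27ac and Jun at 0, 6 and 72 h. Each point is 1 library, and a short bar marks the mean of 2 libraries at each time. H3K27ac over CD9 climbs from 24.2 and 25.1 to 143 and 151 CPM, and over GP1BB it drops from 348 and 367 to 149 and 151 CPM.

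ITGB3, the β3 subunit shared with the vitronectin receptor, gained H3K27ac through its body and at most flanking sites, with 3 flanking regions lower. The gene spans chr17:47253827-47313743 of GRCh38. Summed over its 21 regions, H3K27ac was 435 and 426 CPM at 0 h, then 445 and 478 at 6 h, then 786 and 844 at 72 h, which is 1.89 times the 0 h mean at 72 h and 1.07 times at 6 h. The 72 h libraries lay clear of the others, and the direction held with total counts (2.22 times) and DESeq2 (1.95 times). Of its 12 regions in the gene span, 11 were higher at 72 h and none lower, and of 9 flanking regions 6 were higher and 3 lower.

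At the ITGB3 start, region chr17:47254064-47254263 held few counts: 52 and 53 at 0 h, then 44 and 104 at 6 h, then 110 and 134 at 72 h. Both 72 h libraries exceeded both 0 h libraries after scaling (2.87 ± 0.113 against 4.43 ± 0.635 CPM, SD, n = 2). The log2 fold change was 0.62 (SE 0.25, edgeR adjusted p = 0.026), and the call was lost with DESeq2 (adjusted p = 0.0859) and without 0 h replicate 1, 0 h replicate 2 or 72 h replicate 2 (adjusted p 0.0603, 0.101 and 0.193). The brightest H3K27ac region, chr17:47286376-47289399, lay inside the gene with its centre 34.1 kb after the start. Its counts were 993 and 1011, then 726 and 1009, then 2921 and 3011. The levels at 0 and 6 h overlapped (54.8 ± 2.2 and 50.2 ± 0.806 CPM, log2 fold change -0.13, edgeR adjusted p = 0.303), and 72 h stood above both (108 ± 2.78 CPM; log2 fold change 0.97 against 0 h, SE 0.1, edgeR adjusted p = 3.01e-09). So the rise here was measured after 6 h.

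The flanking region chr17:47218156-47219939, over MYL4 (a myosin light chain gene), went the other way. Its counts were 1010 and 1074, then 294 and 448, then 719 and 676, with no overlap between 0 h and later levels. CPM fell from 57.0 ± 0.539 to 21.3 ± 1.04 at 6 h (log2 fold change -1.42, SE 0.11, edgeR adjusted p = 3.4e-11) and was 25.3 ± 0.994 at 72 h (-1.17, SE 0.1, adjusted p = 1.44e-10).

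Jun in ITGB3 did not follow H3K27ac. Its summed level was 310 and 326 CPM at 0 h, then 285 and 295 at 6 h, then 256 and 230 at 72 h, 0.765 times at 72 h, but 1.13 times with total counts, so no direction is given for the sum. The brightest Jun region, chr17:47265644-47266512, 12.3 kb inside the gene, had counts of 405 and 422, then 176 and 283, then 688 and 721. Scaled levels fell from 59.8 ± 1.0 to 31.7 ± 1.49 CPM at 72 h (log2 fold change -0.92, SE 0.19, edgeR adjusted p = 0.000309), a call lost with total counts (-0.35, adjusted p = 0.137). Over the same site H3K27ac counts were 444 and 426, then 803 and 1221, then 3011 and 3261, and this region (chr17:47264381-47266780) was 4.78 times higher at 72 h (edgeR adjusted p = 1.19e-15). Rad21 there (chr17:47265619-47266478) had 61 and 44 counts at 0 h, then 179 and 147 at 72 h (log2 fold change 1.52, SE 0.26, edgeR adjusted p = 0.000205). These last 2 regions lie outside the naming rule and were taken for their overlap with the Jun region, after their values were seen. Further in, Jun region chr17:47291658-47291946 fell at both times: counts of 42 and 52, then 6 and 8, then 26 and 33, with a log2 fold change of -2.25 at 6 h (SE 0.44, edgeR adjusted p = 0.000614) and -2.35 at 72 h (SE 0.34, adjusted p = 8.03e-06). The Jun region nearest the start (chr17:47252160-47252427) had counts of 12 and 12, 5 and 3, and 49 and 37, and did not pass the test at 72 h (log2 fold change 0.16, edgeR adjusted p = 0.794).

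ITGA2B, the αIIb subunit and a classical megakaryocyte marker, lost H3K27ac at its start by 6 h and regained part of it. The gene spans chr17:44372181-44389649 and is read from the upper end. H3K27ac region chr17:44389248-44391612 covers the start and the 200 bases printed above. Its counts were 1231 and 1360 at 0 h, then 386 and 707 at 6 h, then 1285 and 1312 at 72 h. CPM went from 70.8 ± 1.24 to 30.9 ± 5.51 and then 47.1 ± 0.898, and the 3 times did not overlap. The log2 fold change was -1.19 at 6 h (SE 0.12, edgeR adjusted p = 2.53e-09) and -0.59 at 72 h (SE 0.11, adjusted p = 3.06e-05), and between 6 and 72 h it was 0.60 (SE 0.11, adjusted p = 7.4e-05). All 3 regions in the span were lower at 72 h. Across the window the sum was 184 and 189 CPM, then 118 and 124, then 118 and 121 (0.639 times at 72 h, and 0.751 with total counts).

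Jun at the ITGA2B start (chr17:44389612-44390000) also fell, and its later difference did not pass the test (log2 fold change 0.84 between 6 and 72 h, SE 0.4, edgeR adjusted p = 0.13). Counts were 49 and 62, then 5 and 14, then 67 and 86, and scaled levels were 8.02 ± 1.23, 1.84 ± 1.0 and 3.42 ± 0.328 CPM, with 0 h above both later times. The log2 fold change was -2.06 at 6 h (SE 0.39, edgeR adjusted p = 0.000525) and -1.23 at 72 h (SE 0.29, adjusted p = 0.00116); the latter call was lost with total counts (-0.66, adjusted p = 0.0563). The brightest Jun region, chr17:44392953-44394013, centred at -3.8 kb from the start, held 242 and 237 counts, then 107 and 115, then 386 and 398. It fell by 0.97 on the log2 scale at 72 h (SE 0.18, edgeR adjusted p = 0.000125), also lost with total counts (-0.41, adjusted p = 0.0701). Rad21 at the start (chr17:44389603-44390200) had 156 and 80 counts at 0 h, then 84 and 59 at 72 h. Its log2 fold change was -0.82 (SE 0.27, edgeR adjusted p = 0.0292), a call that was lost with DESeq2, without the low-count filter and without 0 h replicate 1 (-0.30), 72 h replicate 1 (-0.86) or 72 h replicate 2 (-0.67).

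In the GPIb-IX-V complex, GP1BB, the β subunit of GPIb, lost H3K27ac and Jun at its start by 6 h and did not regain it. GP1BB spans chr22:19723539-19724771 just after SEPTIN5, and a transcript that joins both, SEPT5-GP1BB, covers it, so start signal cannot be assigned to 1 of them. H3K27ac region chr22:19722272-19724206 had counts of 2732 and 3196, then 918 and 1395, then 1940 and 2012. CPM was 162 ± 9.38 at 0 h, 66.4 ± 3.13 at 6 h and 71.7 ± 2.16 at 72 h. The 0 h libraries stood above all later ones (log2 fold change -1.28 at 6 h, SE 0.11, edgeR adjusted p = 1.31e-10; -1.17 at 72 h, SE 0.1, adjusted p = 1.49e-10), and 6 and 72 h did not differ by the test (0.11, adjusted p = 0.372). Jun at the same start (chr22:19722129-19723763) had 359 and 378 counts, then 156 and 138, then 436 and 414. It went from 53.3 ± 1.29 to 30.3 ± 7.23 and 19.2 ± 2.23 CPM, each time below 0 h (log2 fold change -0.82 at 6 h, SE 0.2, edgeR adjusted p = 0.00472; -1.48 at 72 h, SE 0.19, adjusted p = 2.56e-06).

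Further along the GP1BB window, H3K27ac over TBX1, a developmental transcription factor gene, fell more steeply and later. Region chr22:19761201-19762868 had counts of 597 and 697, then 335 and 487, then 192 and 163. Its log2 fold change was -0.57 at 6 h (SE 0.12, edgeR adjusted p = 0.000158; 0.0675 with total counts) and -2.45 at 72 h (SE 0.13, adjusted p = 3.09e-15). The window's largest rise was at chr22:19745959-19746340, with 6 and 1 counts, then 4 and 2, then 27 and 34 (log2 fold change 2.49 at 72 h, SE 0.7, edgeR adjusted p = 0.00227; 0.051 without 0 h replicate 2). Summed over 13 regions, H3K27ac was 348 and 367 CPM, then 194 and 199, then 149 and 151, or 0.419 times at 72 h (0.492 with total counts).

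GP1BA, the α subunit that binds von Willebrand factor, gained H3K27ac inside the gene from a low level, while most flanking regions lost it. Of 8 flanking regions, 6 were lower at 72 h and 1 was higher (log2 fold change 1.85). The gene spans chr17:4932277-4935023, and its 1 region in the span, chr17:4934072-4934703, is the nearest to the start. Counts were 14 and 20 at 0 h, then 39 and 46 at 6 h, then 67 and 75 at 72 h. CPM was 0.924 ± 0.183, 2.5 ± 0.329 and 2.58 ± 0.217; both later times lay above 0 h and overlapped each other. The log2 fold change was 1.41 at 6 h (SE 0.36, edgeR adjusted p = 0.00166) and 1.47 at 72 h (SE 0.34, adjusted p = 0.000414). The brightest region of the window, chr17:4966215-4968270, lies over SPAG7 and CAMTA2, 35.0 kb away, with counts of 1315 and 1343, then 757 and 1086, then 1168 and 1247. It fell from 72.7 ± 2.76 to 53.2 ± 0.339 and 43.8 ± 2.22 CPM (log2 fold change -0.73 at 72 h, SE 0.1, edgeR adjusted p = 4.1e-07). The window's sum, in which this region is the largest part, also fell (221 and 230 CPM at 0 h, 138 and 142 at 72 h, 0.623 times, and 0.732 with total counts) whereas the region in GP1BA rose. Jun had no region in the GP1BA span; its brightest, over the same neighbours (chr17:4967102-4967993), had 185 and 283 counts, then 64 and 133, then 232 and 239, and fell at 72 h (log2 fold change -1.67, SE 0.23, edgeR adjusted p = 3.41e-06).

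GP9 and GP5, the other partners of the complex, had little signal. GP9 (chr3:129054845-129062406) had 1 H3K27ac region in its span, chr3:129054426-129055342, centred at -5.9 kb from the start site, with counts of 78 and 77, then 26 and 48, then 64 and 93, lower at 6 h (log2 fold change -1.0, SE 0.28, edgeR adjusted p = 0.00414) and at 72 h (-0.57, SE 0.26, adjusted p = 0.0456). This region lies outside the naming rule. The 6 h call was lost with total counts (adjusted p = 0.0504). The 72 h call was lost with total counts (0.233), with DESeq2 (0.203) and without 0 h replicate 1, 0 h replicate 2 or 72 h replicate 1 (0.148, 0.0736 and 0.352). Its largest change was over RAB43 (chr3:129090412-129091021), a small GTPase gene 29.9 kb after the start, with 5 and 4 counts, then 7 and 5, then 75 and 49 (log2 fold change 3.16 at 72 h, SE 0.53, edgeR adjusted p = 7.06e-06). Jun in the GP9 window summed to 28.6 and 28.1 CPM, then 21.8 and 19, then 17.6 and 15.9, 0.591 times at 72 h (0.871 with total counts).

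GP5 (chr3:194394821-194399266) had neither an H3K27ac nor a Jun region in its span. The 4 H3K27ac regions of its window together held 41 and 58 counts at 0 h, then 45 and 103 at 6 h, then 118 and 101 at 72 h. These came to 2.33 and 3.06 CPM, then 3.15 and 5.07, then 4.27 and 3.68, so later libraries were above those at 0 h. The brightest of them, chr3:194422125-194422518 over ATP13A3, had 18 and 14 counts, then 20 and 52, then 35 and 34, and was called at 6 h only (log2 fold change 1.2, SE 0.43, edgeR adjusted p = 0.018; 0.51, adjusted p = 0.27 at 72 h). That call was lost with DESeq2 (adjusted p = 0.109) and without 0 h replicate 2 (0.111) or 6 h replicate 2 (0.329). The nearest Jun region, chr3:194400806-194401072, centred at -1.7 kb from the start, had 18 and 17, 4 and 7, and 29 and 28 counts and was not called (log2 fold change -0.98 at 72 h, edgeR adjusted p = 0.0804). Summed Jun was 25.2 and 24.9 CPM at 0 h, then 24.2 and 25.9 at 72 h, which overlapped (0.999 times, but 1.47 with total counts).

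**Figure D3:**
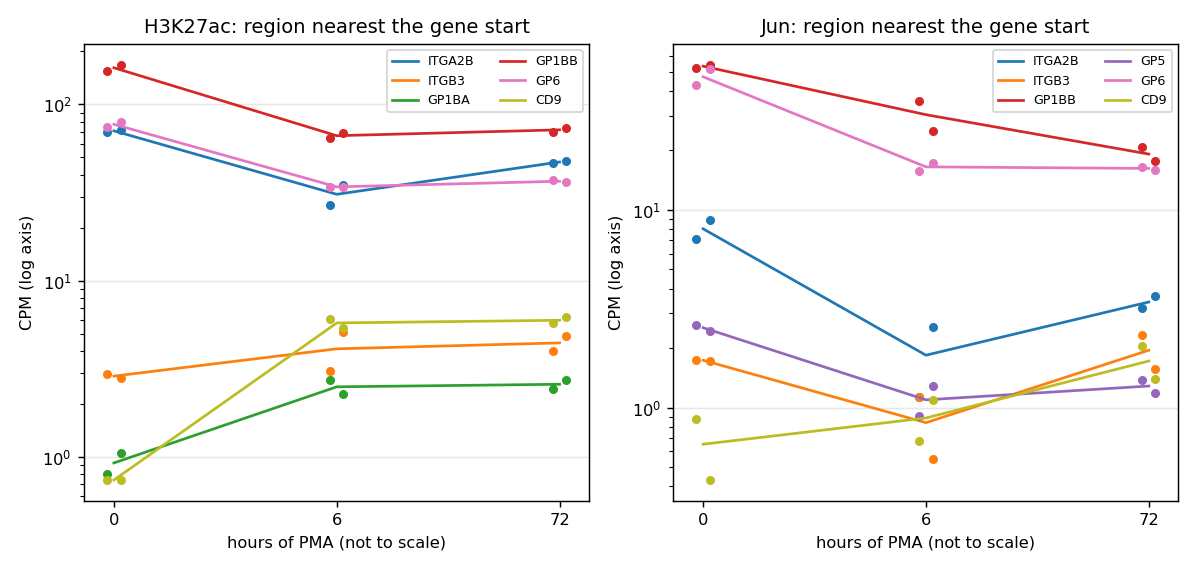
CPM (log axis) at 0, 6 and 72 h of the region nearest the start of each gene that has one within 2 kb, for H3K27ac and Jun; points are libraries and lines join means of 2. Regions differ in length, so the course is compared and not the height: H3K27ac at GP1BB, GP6 and ITGA2B drops by 6 h, and at CD9 it rises from 13 and 14 counts to 87 and 110.

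GP6, the collagen receptor, lost H3K27ac and Jun at its start by 6 h. Of its 3 H3K27ac regions in the span, 2 were lower at 72 h and none higher. It spans chr19:55013705-55038264 and is read from the upper end, with an antisense transcript, GP6-AS1, across it. H3K27ac region chr19:55036876-55038957 covers the start, with counts of 1309 and 1518, then 488 and 690, then 1026 and 994. Levels of 77.2 ± 4.0, 34.1 ± 0.132 and 36.7 ± 0.662 CPM put 0 h above both later times (log2 fold change -1.18 at 6 h, SE 0.1, edgeR adjusted p = 4.7e-10; -1.07 at 72 h, SE 0.1, adjusted p = 4.8e-10). Jun there (chr19:55037871-55038813) had 294 and 358 counts, then 69 and 95, then 347 and 375. It went from 47.1 ± 5.96 to 16.5 ± 1.18 and 16.2 ± 0.413 CPM (log2 fold change -1.51 at 6 h, SE 0.2, edgeR adjusted p = 1.32e-05; -1.54 at 72 h, SE 0.18, adjusted p = 7.61e-07). Both marks thus fell by 6 h and were level afterwards within the test (0.11, adjusted p = 0.381 for H3K27ac and -0.03, adjusted p = 0.934 for Jun between 6 and 72 h).

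Inside GP6, 10.4 kb after the start, region chr19:55026503-55029304 was the brightest for H3K27ac. It held 1015 and 1134 counts, then 679 and 1114, then 1798 and 1839, or 58.7 ± 1.5, 51.2 ± 5.17 and 66.0 ± 1.34 CPM. It was not called against 0 h (log2 fold change 0.17 at 72 h, SE 0.1, edgeR adjusted p = 0.132), and rose between 6 and 72 h (0.36, adjusted p = 0.00393). The steepest Jun fall among all 124 tested regions at 72 h was also in this window, at chr19:55063027-55063522 over RDH13, a retinol dehydrogenase gene. Counts there were 194 and 189, then 42 and 43, then 101 and 118, with log2 fold changes of -1.68 at 6 h (SE 0.22, edgeR adjusted p = 1.15e-05) and -2.49 at 72 h (SE 0.2, adjusted p = 1.1e-08). Summed Jun over the 17 regions of the window was 227 and 222 CPM, then 106 and 118, then 104 and 94.3, 0.443 times at 72 h and 0.652 with total counts.

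SELP, which encodes P-selectin, had almost no H3K27ac and gained Jun at distal sites. The gene spans chr1:169588849-169630124 and is read from the upper end. Only 2 H3K27ac regions lay in its window and none in its span. The brighter, chr1:169584691-169585375, lies over F5 (coagulation factor V), 45.1 kb after the SELP start, with 5 and 12 counts, then 29 and 38, then 87 and 68. Its level was 0.458 ± 0.246, 1.95 ± 0.112 and 2.81 ± 0.476 CPM, above 0 h at both later times (log2 fold change 2.05 at 6 h, SE 0.44, edgeR adjusted p = 0.000312; 2.59 at 72 h, SE 0.41, adjusted p = 3.13e-06). Jun at the same place (chr1:169584475-169585631) had 42 and 25 counts, then 42 and 57, then 283 and 352, or 4.85 ± 1.8, 9.97 ± 0.614 and 14.2 ± 1.05 CPM (log2 fold change 1.04 at 6 h, SE 0.29, edgeR adjusted p = 0.0101, but 0.145 without 0 h replicate 2 and 0.0779 without 6 h replicate 2; 1.55 at 72 h, SE 0.25, adjusted p = 2.62e-05). On the other side, -46.0 kb from the start, Jun region chr1:169675852-169676463 had 9 and 15, 13 and 21, and 167 and 201 counts (log2 fold change 2.24 at 72 h, SE 0.33, edgeR adjusted p = 8.47e-06). Summed Jun was 17.1 and 14.2 CPM, then 27.7 and 24.5, then 43.6 and 43.8, 2.8 times at 72 h, and 4.11 with total counts, with no overlap between times.

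CD9 gained H3K27ac at its start, inside the gene and on both sides of it. It spans chr12:6199946-6238266 and has 4 RefSeq start sites. Summed over 16 regions, H3K27ac was 24.2 and 25.1 CPM at 0 h, then 82.9 and 87.9 at 6 h, then 143 and 151 at 72 h. The 3 times did not overlap, and the ratios were 3.46 at 6 h and 5.96 at 72 h (4.37 and 7 with total counts). At 6 h 14 of the 16 regions were already higher and none lower, and between 6 and 72 h 8 rose and 1 fell.

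At the first CD9 start, H3K27ac region chr12:6199537-6200274 covers the sequence printed above. Counts were 13 and 14 at 0 h, then 87 and 110 at 6 h, then 158 and 170 at 72 h. Its level at 6 h, 5.75 ± 0.476 CPM, was already that at 72 h, 5.95 ± 0.334, within the spread (log2 fold change 2.95 at 6 h, SE 0.29, edgeR adjusted p = 2.45e-09; 3.00 at 72 h, SE 0.28, adjusted p = 2.81e-10; 0.06 between them, adjusted p = 0.82). Other CD9 sites went on rising after 6 h. Region chr12:6178919-6181017, centred at -20.0 kb from the start, had counts of 31 and 29, then 108 and 196, then 871 and 897 (log2 fold change 2.40 at 6 h and 4.29 at 72 h, SE 0.18, edgeR adjusted p = 3.48e-17). Region chr12:6279595-6280838, over the uncharacterised LOC105369625 and 80.3 kb after the start, had 11 and 20, then 152 and 229, then 618 and 615. That was the largest H3K27ac increase among the 93 regions at 72 h (log2 fold change 4.72, SE 0.21, edgeR adjusted p = 1.3e-16). The brightest, chr12:6167118-6168986, had 234 and 305, then 457 and 729, then 1052 and 1176 counts (log2 fold change 1.46 at 72 h, SE 0.12, edgeR adjusted p = 4.32e-11).

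One site inside CD9, about 20.0 kb after the start, rose for 3 antibodies. H3K27ac region chr12:6219370-6220224 had 6 and 2 counts at 0 h, then 11 and 25 at 6 h, then 162 and 155 at 72 h (log2 fold change 4.68 at 72 h, SE 0.42, edgeR adjusted p = 1.49e-10). The Jun region on it, chr12:6219592-6220367, had 14 and 15, then 19 and 39, then 242 and 306 (2.54, SE 0.3, edgeR adjusted p = 6.04e-07). Rad21 region chr12:6219775-6220151 within it had 4 and 3 counts at 0 h, then 32 and 24 at 72 h (2.84, SE 0.62, edgeR adjusted p = 0.00222; 0.0751 without 72 h replicate 1). In all 3 cases both 72 h libraries lay above both 0 h libraries, as the rule that named these regions required. A second Jun region, chr12:6218542-6218992, had 8 and 3, then 20 and 34, then 122 and 112 counts, and was as high at 6 h as at 72 h (log2 fold change 2.75 and 2.71; -0.04 between them, edgeR adjusted p = 0.94).

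Summed Jun over CD9 hid these gains. It was 124 and 139 CPM at 0 h, then 155 and 182 at 6 h, then 144 and 138 at 72 h, and 0 and 72 h overlapped (1.07 times, and 1.58 with total counts). The brightest Jun region, chr12:6167269-6168590, carried much of that sum and went the other way, with 449 and 555 counts, then 251 and 419, then 807 and 833, or 72.5 ± 9.94, 66.7 ± 13.8 and 36.9 ± 2.13 CPM (log2 fold change -0.98 at 72 h, SE 0.2, edgeR adjusted p = 0.000284; with total counts -0.41, adjusted p = 0.0983). Over this site H3K27ac rose, as given above, and so did Rad21 (chr12:6167457-6168337, 71 and 37 counts at 0 h, 140 and 94 at 72 h, log2 fold change 1.01, SE 0.27, edgeR adjusted p = 0.00998; 0.0558 with DESeq2 and 0.171 without 72 h replicate 1).

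**Figure D4:**
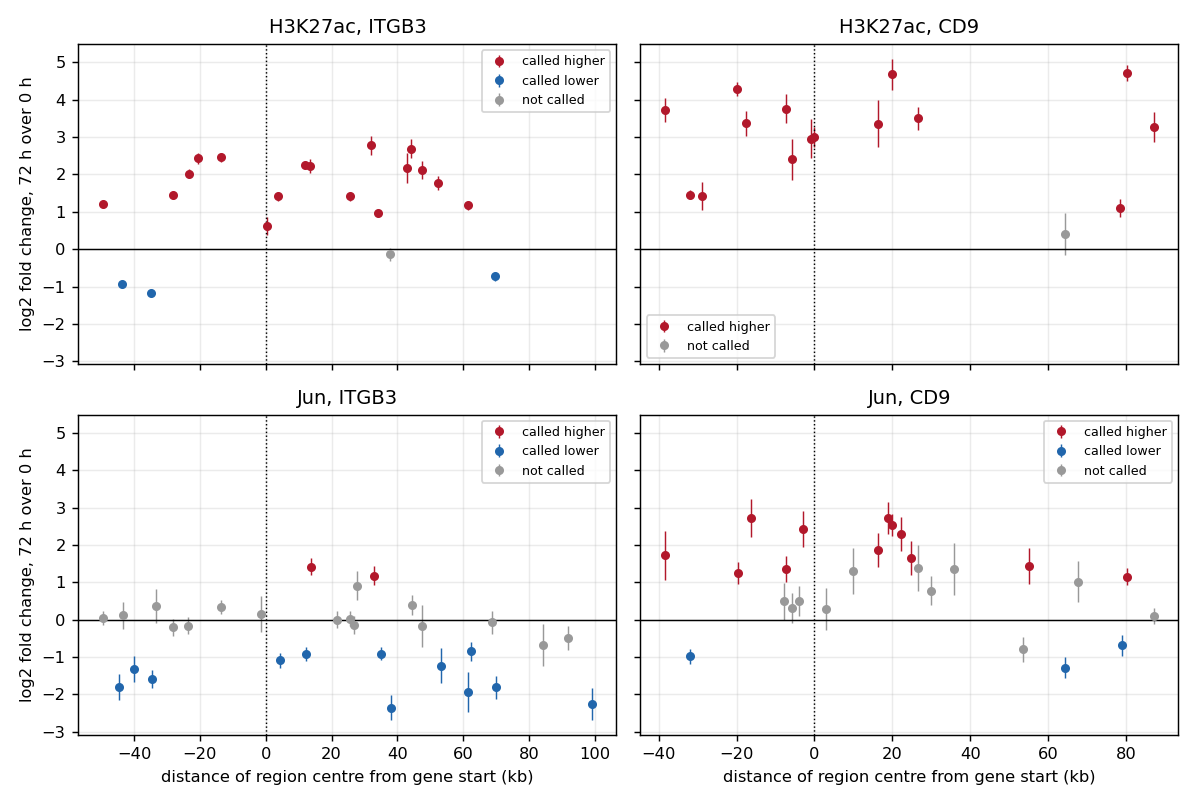
Log2 fold change at 72 h against 0 h (points, with SE bars) of each H3K27ac and Jun region by its distance in kb from the first start of ITGB3 and CD9, with regions called higher, called lower and not called marked apart. At CD9 15 of 16 H3K27ac regions are called above 0, and at ITGB3 the 3 lower ones lie outside the gene.

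H3K27ac and Jun were compared where they lay on the same DNA. Of the 93 H3K27ac regions, 67 overlapped a Jun region by at least 1 base, giving 76 pairs. In 15 pairs (19.7%) both were higher at 72 h and in 20 (26.3%) both were lower. In 7 pairs (9.21%) H3K27ac was higher and Jun lower, and in none was H3K27ac lower and Jun higher. Over all 76156 such pairs of the 2 tables these shares were 29.3%, 23.7%, 3.09% and 0.205%, which were not tested against those of the members. H3K27ac was called alone in 21 pairs (12 higher and 9 lower), Jun alone in 6 (all lower), and neither in 7. Pairs in 1 window share a gene and the libraries, so they are not independent, and the Jun side moves with the scaling given above.

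**Figure D5:**
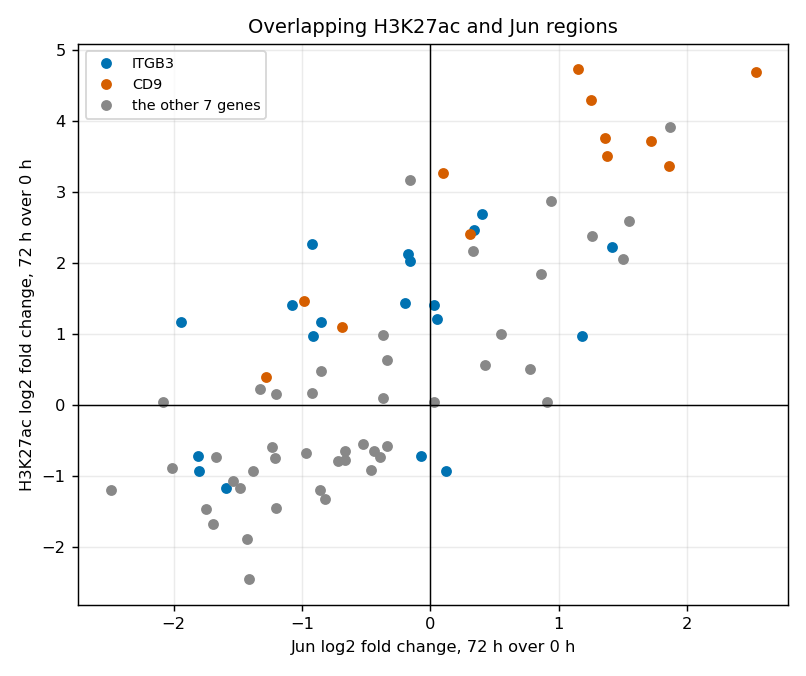
Log2 fold change at 72 h against 0 h of Jun (horizontal) and H3K27ac (vertical) in the 76 overlapping pairs, coloured for ITGB3, CD9 and the other 7 genes. Pairs called in both fall in the upper right (15), lower left (20) and upper left (7), and none in the lower right.

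At 6 h, CTCF calls were few at the members as over the whole table. None of 55 tested CTCF regions was called at 6 against 0 h by edgeR (background 2.65%) or by DESeq2, with 7 and 4 at an unadjusted p under 0.05, a count too near the background to be a result about these genes. Summed CTCF was nevertheless lower at 6 h, without overlap, over GP5 (0.534 times the 0 h mean), GP9 (0.698), GP1BA (0.741), ITGB3 (0.746) and ITGA2B (0.967). At 72 against 0 h 10 were called, 2 higher and 8 lower (background 6.79%, with 4.07% higher and 2.72% lower), and at 72 against 6 h 3, with 1 higher and 2 lower (background 2.18%, with 0.449% higher and 1.73% lower). With total counts, 66.7% of the called regions were higher at 72 against 0 h in place of 20%, and 100% in place of 33.3% at 72 against 6 h, as the median of all regions moved from 0.03 to 0.26 and from 0 to 0.42. At 6 against 0 h that median moved from 0.02 to -0.16. The 72 h count fell to 1 without 0 h replicate 1, to 0 without 0 h replicate 2 and to 2 without either 72 h library, and rose to 19 without either 6 h library.

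The site with the smallest adjusted p was beyond the 3′ end of ITGB3, over EFCAB13-DT. CTCF region chr17:47315421-47316132 had 206 and 152 counts at 0 h, then 101 and 87 at 6 h, then 76 and 106 at 72 h, or 53.7 ± 1.66, 34.0 ± 1.91 and 16.2 ± 1.85 CPM with no overlap. Its log2 fold change at 72 h was -1.73 (SE 0.25, edgeR adjusted p = 0.003), with an adjusted p of 0.0659 without 0 h replicate 2 and 0.0529 without 72 h replicate 2. Rad21 on the same site (chr17:47315437-47316133) had 145 and 135 counts at 0 h, then 88 and 50 at 72 h, and fell by 1.17 on the log2 scale (SE 0.26, edgeR adjusted p = 0.00272; 0.19 without 72 h replicate 2). Of the 2 called increases, 1 was in the ITGA2B window at chr17:44328716-44329149, with 19 and 12 counts, then 23 and 27, then 80 and 116 (log2 fold change 1.9, SE 0.35, edgeR adjusted p = 0.00823; 0.0715 and 0.0982 without 0 h replicates 1 and 2). The other was in ITGB3 (chr17:47288472-47288818; 4 and 10, 14 and 7, 33 and 65 counts; log2 fold change 1.94, SE 0.56, edgeR adjusted p = 0.0464), lost without any single 0 or 72 h library. The 1 CTCF region of the GP5 window, chr3:194404440-194405051 over ATP13A3, had 125 and 87, 68 and 29, and 56 and 87 counts (log2 fold change -1.33 at 72 h, SE 0.29, edgeR adjusted p = 0.0165), also lost without any single 0 or 72 h library. In the GP6 window summed CTCF was 22.4 and 24.5 CPM, then 28.5 and 17.9, then 48.8 and 50.4, 2.11 times at 72 h. None of its 6 tested regions was called with TMM or with DESeq2, but with total counts 4 were higher and none lower. Of the 6 the brightest, in GP6 at chr19:55026897-55027517, had 26 and 9, 11 and 13, and 52 and 97 counts (with TMM, log2 fold change 1.33, SE 0.4, edgeR adjusted p = 0.0526).

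Rad21 calls were mostly higher at CD9 and ITGB3, in numbers that 1 library moved. Between 0 and 72 h, 22 of the 80 that could be tested passed, 15 higher and 7 lower (background 23.3% called, 15.4% higher and 7.91% lower), and with total counts the higher share was 55% in place of 68.2% as the median of all regions moved from -0.05 to -0.25. The count was 8 without 72 h replicate 1 and 11 without 72 h replicate 2. ITGB3 had 7 higher and 2 lower of 20 regions, CD9 4 higher and none lower of 9, GP6 2 higher of 13 and SELP 1 higher of 8. For ITGB3 the split was 4 higher and 3 lower with total counts, 3 and 1 with DESeq2, and 3 and 1 without 72 h replicate 1, for CD9 2 and none without 72 h replicate 1, and for GP6 none were higher with DESeq2 or without either 72 h library. ITGA2B had 1 higher and 2 lower of 10, GP1BB 2 lower of 9 and GP9 1 lower of 4. Summed over its window, CD9 was at 38.4 and 28.7 CPM at 0 h, then 62.7 and 59.6 at 72 h, 1.82 times, and ITGB3 at 145 and 131, then 198 and 174, 1.35 times, in neither case with overlap.

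The smallest adjusted p belonged to a region upstream of ITGB3 (chr17:47239824-47240544, centred at -13.6 kb), with 25 and 11 counts at 0 h, then 118 and 89 at 72 h (log2 fold change 2.41, SE 0.33, edgeR adjusted p = 2.15e-05). H3K27ac on that site had 353 and 344 counts, then 769 and 1299, then 2810 and 2957 (log2 fold change 2.46 at 72 h), and Jun was not called there (0.34, adjusted p = 0.142); this site too was singled out after its values were seen. The steepest called fall was in GP9, at chr3:129054509-129055080, inside its H3K27ac region at -5.9 kb, with 80 and 40 counts at 0 h, then 20 and 16 at 72 h (log2 fold change -1.82, SE 0.36, edgeR adjusted p = 0.000974; 0.0526 without 0 h replicate 1). A second large gain at CD9 was at chr12:6286830-6287250, with 6 and 4 counts, then 41 and 30 (log2 fold change 2.68, SE 0.53, edgeR adjusted p = 0.000894), and SELP's was at chr1:169676062-169676302, on the Jun gain at -46.0 kb, with 5 and 2 counts, then 17 and 26 (2.52, SE 0.72, edgeR adjusted p = 0.014; 0.0693 with DESeq2 and 0.535 without 72 h replicate 2). At the starts of GP1BB (chr22:19722409-19723817; 239 and 204 counts, then 318 and 209) and GP6 (chr19:55037774-55038793; 109 and 73, then 108 and 87), where H3K27ac and Jun fell, Rad21 was not called (log2 fold changes 0.11 and -0.01, edgeR adjusted p 0.755 and 0.986). All 15 regions that gained Rad21 overlapped a Jun region, as did 61 of the 80 tested (76.2%). Of all Rad21 regions, 59.8% of those tested and 89% of those that gained it overlapped one, so this is not particular to these genes.

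The authors' own peak lists, called per library, were counted in the same windows. H3K27ac peaks over CD9 numbered 2 and 1 at 0 h, then 5 and 7 at 6 h, then 10 and 12 at 72 h, and over ITGB3 14 and 16, 16 and 19, and 25 and 25. Jun peaks over CD9 numbered 3 and 4, 3 and 7, and 19 and 20, and over SELP 0 and 0, 0 and 1, and 5 and 5. Over GP6, where the summed Jun CPM fell, Jun peaks numbered 9 and 7 at 0 h and 12 and 9 at 72 h, so these times were not apart. The whole lists also grew, from 42125 and 42852 H3K27ac peaks at 0 h to 65267 and 66147 at 72 h, and from 31637 and 35072 Jun peaks to 92329 and 99102, so a higher number of peaks in a window is not particular to it. Some regions rest on no peak in any library: 16 of the 93 for H3K27ac, 24 of 125 for Jun, 10 of 60 for CTCF and 10 of 87 for Rad21.

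Other platelet receptor and signalling genes were set beside these, by the regions in their spans. The list held 18 genes, of which 15 had a tested H3K27ac region. At 72 against 0 h, 40 of its 65 H3K27ac regions were higher and 14 lower (median log2 fold change 1.86), and 10 genes had at least 1 higher region and 9 at least 1 lower. Over all tested regions 43.4% were higher and 38.1% lower (median 0.18). In the spans of the 9 genes, without flanks, 16 of 25 were higher and 7 lower (median 1.41). The receptors ITGA2 (the collagen-binding integrin α2 subunit) and PECAM1 had 10 of 10 and 7 of 10 regions higher, with medians of 5.23 and 1.98, and VWF, the ligand of GPIb, had 7 of 7 higher (median 4.96). The thrombin receptor F2R had 3 of 3 higher, and FCER1G, which encodes the Fc receptor gamma chain, had 2 of 2. RASGRP2 had 1 of 2 higher and none lower, and the 1 region of TBXA2R was not called. The integrin β1 subunit ITGB1 had 2 higher and 2 lower of 7 (median 0.05). Lower regions were found at 9 genes. They were 1 of 1 at the ADP receptor P2RY1 (-2.07) and the thrombin receptor F2RL3 (-0.56), and 2 of 3 at the kinase SYK. Talin, TLN1, had 3 of 6 lower and 2 higher, and the phospholipase PLCG2 had 2 of 8 lower and 5 higher. FERMT3 had 1 of 2 lower and 1 higher, and FLNA had 1 of 2 lower and none higher. The others were PECAM1 (1 of 10) and ITGB1. CD36, CLEC1B and P2RY12 had no H3K27ac region. For Jun with TMM scaling, 41 of 91 tested regions were higher and 13 lower, with 13 of 15 higher at ITGA2 and 11 of 13 at VWF. The background was 28% higher and 25.7% lower, and in the spans of the 9 genes 7 of 32 were higher and 10 lower. Other scalings of this Jun split are not given here. Rad21 was higher at 14 and lower at 3 of 47 (background 15.4% and 7.91%), and CTCF higher at 4 and lower at 1 of 35 (background 4.07% and 2.72%). No test compared this list with the 9 genes.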

How the data were processed

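Chromatin from K562 cells was profiled by antibody in 22 libraries, each grouped by antibody and time from its title. The submitters' processing notes name Trim Galore 0.4.3, BWA 0.7.17, SAMtools 1.9, deepTools 3.0.1, MACS2 and bedtools 2.26, and the builds hg19 and hg38, with no role; region coordinates are those of GRCh38, and starts are given here 1-based. The authors deposited, per antibody, a table of raw counts for every region in every library, with the authors' log2 fold changes, adjusted p-values and a label, per the file headers; how the regions were built and counted is not given in the sources used here. The peak lists, 1 per library, hold peak positions with the authors' fold enrichment (a ratio), score, signal and −log10 p and q, of which the positions alone were used.

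The 9 genes, the comparison lists and the tests were chosen with earlier results of these data known. Some genes of those lists are not reported here, and the lists' sums and counts are without them. A region was a member if it overlapped a RefSeq gene span widened by 50 kb. The deposited counts of each antibody were fitted with edgeR 4.0.16 under R 4.3.3, using all regions: filterByExpr by group, TMM, glmQLFit and glmQLFTest over all time points with no replicate block, and Benjamini-Hochberg adjustment over all tested regions, called under 0.05. All 93 H3K27ac members passed the filter, and 124 of 125 for Jun, 55 of 60 for CTCF and 80 of 87 for Rad21. The SE of a log2 fold change is its size over the square root of F. CPM is the count over the library total times its TMM factor. Intervals are not given, since counts of fragments cover counting error only. The regions named were, per gene and antibody, the one nearest the start within 2 kb and the one with the highest mean CPM. Per antibody and comparison, the 3 largest and 3 smallest log2 fold changes among called regions whose groups did not overlap were added. Not all are described. Left out, among others, are H3K27ac at chr22:19760095-19760489 (-2.55 at 72 h) and Jun at chr17:44340718-44340971 (-3.02 at 6 h). So are CTCF at chr17:4895974-4896200 (-2.99, 72 against 0 h) and chr17:47266005-47266295 (3.37, 72 against 6 h). A few regions described are marked as outside this rule or chosen after their values were seen. DESeq2 1.42.0, total counts, other filters, only the 2 time points compared, a replicate block and leaving out each library were alternatives. On simulated counts with 200 regions changed 4-fold between 0 and 72 h, the script called 168 of them among 93407 H3K27ac regions, 157 among 129478 for Jun, 143 among 55763 for CTCF and 122 among 77590 for Rad21, with false calls at 5.08%, 3.68%, 3.38% and 0% of the calls. All other simulated regions kept 1 mean over time, whereas 81.5% of H3K27ac regions were called in the data. These rates therefore check the script and need not hold for these data.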

Additional observations from a re-analysis of the deposited data

How the results depend on the processing

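Alternatives were run for the numbers of member regions called. For H3K27ac the number stayed within 1.5 times of 64 (6 against 0 h), 79 (72 against 0 h) and 54 (72 against 6 h) under each alternative run. With each library left out in turn it ranged from 54 to 61, 74 to 79 and 44 to 54. Jun ranged from 29 to 36, 48 to 77 and 3 to 30, CTCF from 0 to 2, 0 to 19 and 0 to 5, and Rad21 from 8 to 20. Leaving out a library leaves 1 at that time, which is assumed to vary like the others. For Jun at 72 against 6 h the number was 15 without 6 h replicate 2, 6 without 72 h replicate 1 and 3 without 72 h replicate 2. For CTCF at 6 against 0 h it was 2 without 6 h replicate 1, and at 72 against 6 h 5 without 6 h replicate 1 and 0 without either 72 h library. Over regions with a mean count of at least 50, the number was 40 for Jun at 72 against 0 h, 1 and 0 for CTCF at 72 against 0 and 6 h, and 7 for Rad21, as fewer regions were tested. DESeq2 called 13 for Jun at 72 against 6 h, 5 and 1 for CTCF at 72 against 0 and 6 h, and 8 for Rad21. With total counts, CTCF had 1 at 6 against 0 h, and at 72 h 15 against 0 h and 8 against 6 h. With only the 2 time points compared, CTCF had 19 at 72 against 0 h. Where no construction explains the change, the cause was not tested. Samples with the same replicate number deviated together little (r from -0.022 to 0.124 over regions). Such a correlation over noisy regions cannot settle whether the numbers pair libraries. At 72 against 0 h a replicate block moved the calls over all regions from 3951 to 7141 for CTCF and from 19527 to 21742 for Rad21. For H3K27ac they went from 77289 to 76737, and for Jun from 71387 to 68510. With the replicate block the numbers were 63, 78 and 55 for H3K27ac, 40, 67 and 26 for Jun, 0, 13 and 4 for CTCF and 25 for Rad21. No named region's called change turned its sign under any alternative run. Among the other members, 1 called Jun region of the GP1BB window did at 72 against 0 h, with total counts (0.04 in place of -0.52). Window sums turned more often with total counts. At 72 against 0 h Jun did at ITGB3 (0.765 times, 1.13 with total counts) and GP5 (0.999, 1.47). CTCF did at SELP (0.983, 1.16) and CD9 (0.936, 1.1), and Rad21 at SELP (1.08, 0.953). Sums at other genes turned in the 6 against 0 h and 72 against 6 h comparisons. Of the calls of named regions, 14 of 74 were lost with DESeq2, 9 of 74 with total counts and none with the block. CTCF and Rad21 libraries hold at most 6068421 and 7285286 counts; whether depth limits their calls was not tested.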

Other observations

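The authors' deposited tables label each region as static or as moving up or down, early or late. For H3K27ac, 71.4% of the 7711 regions labelled downEarly had a positive log2 fold change at 72 h in the authors' deposited table, against 72.8% of the 22063 labelled upLate, 71.0% of upEarly and 73.3% of downLate. For Jun the shares were 48.8% of downEarly and 49.4% of upLate, and for CTCF 30 of 33 downEarly regions were positive. For Rad21, whose table has only up and down, all 1898 labelled up were positive and none of 87 labelled down was, in the authors' deposited table. Among the regions of the 9 receptor genes, the authors' deposited table has a positive 72 h change for 5 of 7 downEarly and 16 of 19 upLate H3K27ac regions, and for 3 of 3 up Rad21 regions. The labels were therefore not used in any comparison.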
